A study of Mus musculus with 16 samples.

Results

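The common gamma chain family of cytokine receptors was described across CD25- and CD25+ splenic CD4+ T cells of mice with and without a DNA-binding thyroid hormone receptor alpha. The 10 genes were taken by symbol from the 47643 gene identifiers of both deposited tables: the receptor chains Il2ra, Il2rb, Il2rg, Il7r, Il4ra and Il21r, the kinase Jak3, the transcription factors Stat5a and Stat5b, and the feedback inhibitor Cish. All 10 were found in both tables and all 10 passed the filter on low values in both. The series asks how signalling through thyroid hormone receptor alpha (gene Thra) affects regulatory T cells. TRaGS mice carry a form of the receptor with abrogated DNA binding, and TRaWT mice are their wild-type littermates. The labels name no transgene or Cre, and the sources used here do not give age, sex or strain. From 4 mice of each genotype came 1 library apiece of CD25- CD4+ cells (CD4 in this account; naive in the labels) and of CD25+ CD4+ regulatory T cells (Treg), which gives 16 libraries in 4 groups. The cells were sorted by flow cytometry after magnetic enrichment of CD4+ cells, and the libraries read the 3' end of each polyadenylated mRNA.

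Receptors of this family pair a private chain with the shared gamma chain encoded by Il2rg. Jak1 and Jak3 bound to the chains then phosphorylate Stat factors, above all Stat5a and Stat5b for IL-2 and IL-7, and Stat5 switches on inhibitors such as Cish that dampen the receptor. In T cells the family controls survival and identity: Treg depend on IL-2, which they bind with high affinity through CD25, and resting conventional T cells depend on IL-7. Il2ra encodes CD25 itself, the protein used for the sort, so its difference between the subsets is given as a description with no test.

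The CD4 libraries held 2679119 to 5095278 reads and the Treg libraries 2912038 to 4154027. Of a library's reads, 20.8% to 41.1% fell on 1 gene, Gm42418, and 8.80% to 14.4% on mitochondrial genes. The labels were checked against marker genes. Foxp3, the transcription factor that defines Treg, rose from 85.3 ± 40.3 normalised counts in TRaWT CD4 cells to 1068 ± 56.5 in TRaWT Treg (SD, n = 4 each), and stood at 122 ± 61.5 and 1064 ± 183 in TRaGS. The summed level of 3 naive T cell markers (Ccr7, Lef1 and Tcf7) ranged from 3906 to 5120 in TRaWT CD4, 5237 to 6865 in TRaGS CD4, 1779 to 1893 in TRaWT Treg and 1338 to 1706 in TRaGS Treg. The summed level of 7 B cell markers ranged from 16.6 to 184 over the CD4 libraries and from 44.9 to 247 over the Treg libraries. The CD8 T cell markers Cd8a and Cd8b1 summed to 239 to 415 over the CD4 libraries and 251 to 325 over the Treg libraries. CD4 TRaGS replicate 2 stood apart: it was the deepest library, had the lowest median Spearman correlation with the other 7 of its subset (0.762), was the highest of 8 CD4 libraries for Il7r, Il21r and Stat5b and the lowest for Il2ra, Il2rb and Il2rg. Its red cell and platelet markers summed to 286, against 0 to 27.3 in the other CD4 libraries. Its sums of B cell (184) and of macrophage and dendritic cell markers (82.2) were the highest of the CD4 libraries. Its mitochondrial share (14.4%) was the highest of all 16 libraries. The part of these in its values was not tested. For the values that this library moves most, the value without it is given. TRaGS replicates 3 and 4 have later animal and library numbers than all other mice, so values from TRaGS replicates 1 and 2 alone are given for the main differences.

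The promoters of Cish and Il7r are shown because they were the 2 among the genes with the Stat5 core motif near the start and because both genes differed between the subsets. The motif searched was TTCNNNGAA, a palindromic pattern that reads alike on both strands, in windows of 300 bases around annotated gene starts (RefSeq, GRCm38.p6). Each window runs from 250 bases before the start to 50 bases after it. The table held windows for 9 of the 10 genes. Both sequences run 5' to 3' on the gene's own strand, Cish at chr9:107296409-107296708 on the plus strand and Il7r at chr15:9529827-9530126 on the minus strand, and capitals mark each match.
Cish: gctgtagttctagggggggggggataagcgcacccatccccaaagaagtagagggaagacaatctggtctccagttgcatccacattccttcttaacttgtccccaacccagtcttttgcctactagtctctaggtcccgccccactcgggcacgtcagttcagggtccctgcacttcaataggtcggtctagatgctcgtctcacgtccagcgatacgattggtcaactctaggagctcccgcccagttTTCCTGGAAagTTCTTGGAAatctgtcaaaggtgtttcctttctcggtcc
Il7r: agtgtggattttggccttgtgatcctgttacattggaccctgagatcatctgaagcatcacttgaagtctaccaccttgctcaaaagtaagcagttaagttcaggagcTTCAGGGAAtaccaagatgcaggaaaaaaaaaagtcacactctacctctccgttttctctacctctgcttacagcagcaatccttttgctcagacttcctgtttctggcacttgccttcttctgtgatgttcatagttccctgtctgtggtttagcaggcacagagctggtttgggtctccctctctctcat
Cish held 2 matches, at bases 251 to 259 and 262 to 270 of its window, and Il7r held 1, at bases 109 to 117. By the window layout the Cish matches fall at or after the start and the Il7r match before it. Both windows lie inside the GENCODE gene coordinates given below, whose outer start is further upstream. The windows of Il2ra, Il2rg, Il4ra, Il21r, Jak3, Stat5a and Stat5b held 0. Over all 32851 windows of this length 8.3% had at least 1 match and 0.457% at least 2. A match is a run of letters and not a measured binding site.

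The subsets were compared first, on reads recovered from both tables and scaled together, through each animal's Treg minus CD4 difference. Il2rb and Cish were higher in Treg and Il7r was lower, in each genotype and in all 8 animals. These were 3 of the 9 genes other than Il2ra, against 3.24% of all 10838 genes called in TRaWT (1.80% higher, 1.44% lower) and 8.17% in TRaGS (4.46% higher, 3.72% lower). The balance of directions over all genes depended on the scaling: 195 were called higher and 156 lower in TRaWT and 483 and 403 in TRaGS, against 275 and 79 and 1086 and 143 with upper-quartile factors, under which Il2rb and Cish kept their calls and Il7r did not. The other 6 were not called in either genotype. The summed naive markers given above were lower in all Treg libraries than in all CD4 libraries, and their part in these differences was not tested. In bulk samples fewer cells of a type and less RNA per cell cannot be told apart.

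Il2ra stood at 121, 75.9, 102 and 140 normalised counts in TRaWT CD4 cells and at 78.9, 68.9, 149 and 104 in TRaGS CD4 cells. In Treg it stood at 1408, 1306, 1558 and 1228 in TRaWT and at 1063, 1258, 951 and 927 in TRaGS. Every Treg library lay above every CD4 library, and the mean log2 difference was 3.66 in TRaWT and 3.43 in TRaGS, as the sort on its product selects.

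Il2rb, the signalling chain shared by the IL-2 and IL-15 receptors, stood at 195, 139, 196 and 319 in TRaWT CD4 cells and at 514, 659, 597 and 479 in Treg of the same mice. In TRaGS it stood at 165, 48.1, 272 and 329 in CD4 and at 752, 782, 913 and 723 in Treg. All Treg libraries lay above all CD4 libraries. The log2 difference was 1.45 ± 0.28 in TRaWT (SE; limma adjusted p = 0.000247), 2.74-fold, and 2.26 ± 0.28 in TRaGS (adjusted p = 1.06e-09), 4.81-fold. Replicate 2 gave the highest of the TRaGS differences, 3.99 against 2.18, 1.75 and 1.14, and without it the mean was 1.69 ± 0.26 (adjusted p = 5.96e-08). The TRaWT call was lost without the filter on low values (adjusted p = 0.107) and without a variance trend (0.269), and the TRaGS call without a trend (0.0567). Both calls were lost with limma's default trend, on the mean difference (adjusted p = 0.357 in TRaWT and 0.0921 in TRaGS).

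Cish, an SH2-domain inhibitor induced by Stat5, stood at 39.2, 25.3, 94.2 and 64.3 in TRaWT CD4 cells and at 314, 388, 549 and 407 in TRaWT Treg. In TRaGS it stood at 85.0, 80.7, 90.9 and 132 in CD4 and at 434, 498, 439 and 315 in Treg. The subsets did not overlap in either genotype. The log2 difference was 3.01 ± 0.36 in TRaWT (limma adjusted p = 2.70e-10), 8.04-fold, and 2.11 ± 0.36 in TRaGS (adjusted p = 5.01e-06), 4.33-fold. With limma's default variance trend, on the mean difference, Cish was called in neither genotype (adjusted p = 0.0698 and 0.0658). In TRaGS replicates 1 and 2 alone the differences were 3.09 ± 0.41 for Il2rb and 2.47 ± 0.53 for Cish.

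Il7r, the IL-7 receptor alpha chain, went the other way. It stood at 1944, 2106, 2788 and 2758 in TRaWT CD4 cells and at 1711, 1222, 1311 and 1878 in Treg. In TRaGS it stood at 2744, 5074, 2539 and 3195 in CD4 and at 1688, 1909, 1925 and 2015 in Treg. The subsets did not overlap in either genotype, and the log2 difference was -0.65 ± 0.14 in TRaWT (limma adjusted p = 0.00120) and -0.79 ± 0.14 in TRaGS (adjusted p = 1.88e-05). The call for Il7r depended on scaling: upper-quartile factors move the median difference of all genes from 0.093 to 0.25 in TRaWT and from 0.19 to 0.55 in TRaGS, and Il7r is then -0.49 (adjusted p = 0.0637) and -0.42 (adjusted p = 0.0659). It was also lost in TRaWT without replicate 3 (-0.51, adjusted p = 0.0822) and without the filter on low values (limma adjusted p = 0.107). Both calls were lost without a variance trend (limma adjusted p = 0.436 in TRaWT and 0.206 in TRaGS). They were lost too with limma's default trend, on the mean difference (adjusted p = 0.365 and 0.161). The TRaGS difference was -1.06 ± 0.19 in replicates 1 and 2 alone and -0.59 ± 0.14 without replicate 2.

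The remaining chains, the kinase and the Stat5 pair were closer between the subsets. Il2rg fell short of the threshold although it was lower in Treg in 8 of 8 animals: its level was 1303 ± 293 in CD4 against 902 ± 93.7 in Treg in TRaWT (log2 -0.51 ± 0.17, limma adjusted p = 0.0887) and 1112 ± 194 against 900 ± 154 in TRaGS (-0.30 ± 0.17, adjusted p = 0.295). Without TRaGS replicate 2 its TRaWT difference was called (adjusted p = 0.0191), and DESeq2 also called it (adjusted p = 0.0443). The 95% interval of the Treg minus CD4 difference included 0 in both genotypes for Il4ra, which binds IL-4 and IL-13, Il21r, Jak3, Stat5a and Stat5b. For Stat5b it ran from -0.44 to 0.69 in TRaWT and from -0.76 to 0.37 in TRaGS. Jak3, with 5 to 131 reads a library, gave the widest intervals, -1.88 to 1.22 and -0.33 to 2.77. Leaving Il2ra aside, groups did not overlap for 4 of 9 genes in TRaWT, against 10.1% of all genes, and for 3 of 9 in TRaGS, against 13.2%.

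**Figure D1:**
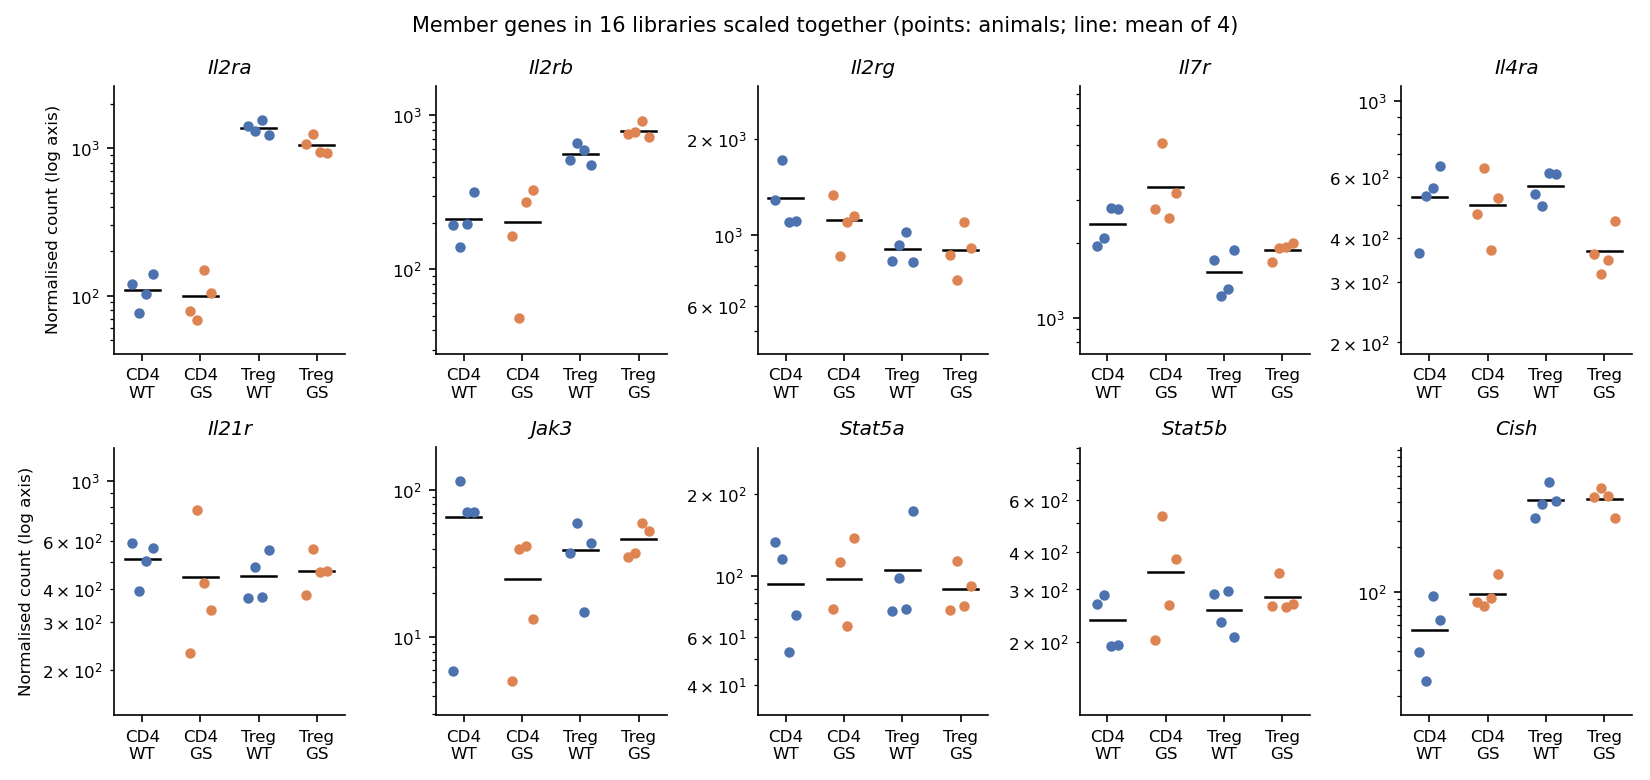
Normalised counts (log axis) of the 10 genes in 16 libraries scaled together; each point is 1 animal and the line is the mean of 4, blue for TRaWT and orange for TRaGS. Il2ra, Il2rb and Cish are higher in all Treg libraries than in all CD4 libraries. Il7r is lower in Treg without overlap within each genotype, but not across genotypes.

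**Figure D2:**
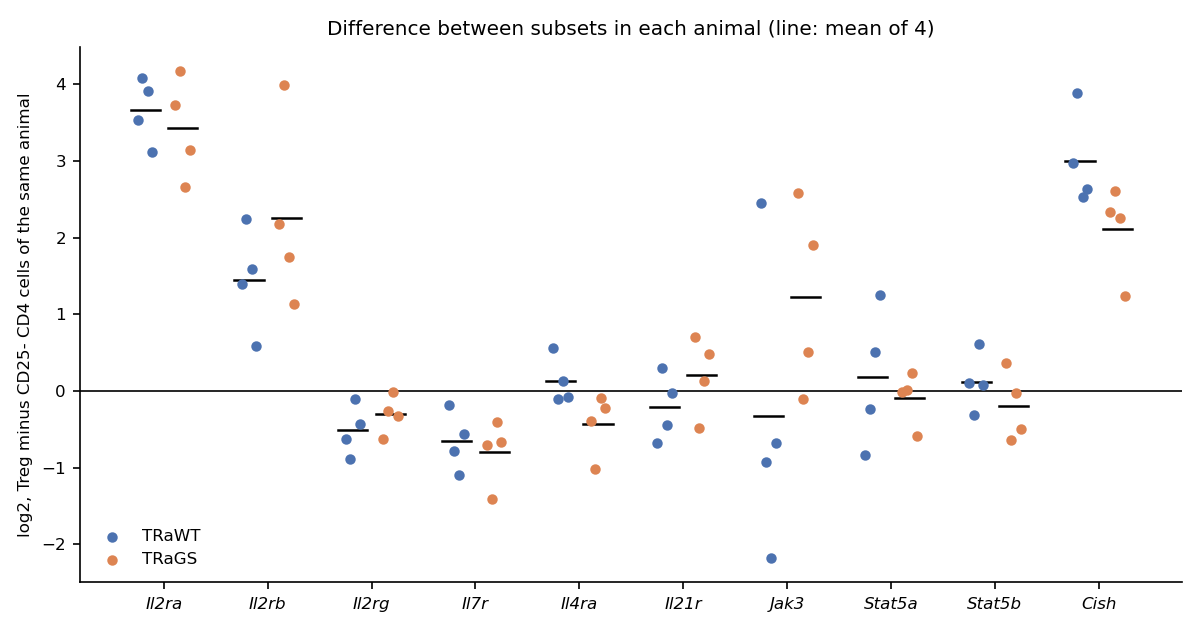
Log2 difference, Treg minus CD25- CD4 cells of the same animal, for each gene and genotype; each point is 1 animal and the line is the mean of 4. Points for Il2rb and Cish lie above 0 in all 8 animals and those for Il7r and Il2rg below 0.

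The genotypes were then compared in Treg, on the deposited values. No gene of the family was called among 10 tested with limma, against 0.959% of 11051 genes (0.733% called higher in TRaGS, 0.226% lower; 81 and 25 genes, and 87 and 11 with upper-quartile scaling), while 4 of 10 had an unadjusted p under 0.05 against 9.12% of all genes. DESeq2 on the recovered reads called 1, Il4ra. Mean levels of Il4ra and Il2ra were lower in TRaGS and those of Il2rb and Il7r higher, each with a 95% interval on 1 side of 0. In 2 of the 10 genes, Il4ra and Il2rb, the genotypes did not overlap, against 5.07% of all genes.

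Il4ra in TRaWT Treg stood at 583, 539, 672 and 674 normalised counts, and in TRaGS Treg at 391, 344, 377 and 489. Every TRaGS library lay below every TRaWT library. The log2 difference was -0.63 ± 0.17 (95% interval -0.97 to -0.28), with limma adjusted p = 0.0635, and the exact two-sided permutation test gave p = 0.0286, the smallest 4 against 4 can give. DESeq2 gave adjusted p = 0.0167, and the range over all alternatives was 0.0167 to 0.475. With TRaGS replicates 1 and 2 alone the difference was -0.74 ± 0.22.

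Il2rb stood at 556, 718, 651 and 527 in TRaWT Treg and at 816, 852, 993 and 787 in TRaGS Treg. All TRaGS libraries were above all TRaWT libraries. The log2 difference was 0.50 ± 0.16 (0.18 to 0.81), with limma adjusted p = 0.167 (0.0669 to 0.599 over the alternatives) and exact permutation p = 0.0286. With TRaGS replicates 1 and 2 alone it was 0.45 ± 0.21.

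Il2ra stood at 1525, 1424, 1699 and 1351 in TRaWT Treg and at 1153, 1370, 1034 and 1009 in TRaGS Treg. The genotypes overlapped through TRaGS replicate 2, which lay above TRaWT replicate 4. The log2 difference was -0.40 ± 0.14 (-0.68 to -0.12), with limma adjusted p = 0.271 and exact permutation p = 0.0571, and -0.25 ± 0.18 with TRaGS replicates 1 and 2 alone. Both genotypes were sorted on the CD25 protein, so this level is that of cells already chosen by it.

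Il7r stood at 1853, 1332, 1430 and 2066 in TRaWT Treg and at 1830, 2079, 2094 and 2192 in TRaGS Treg. The ranges overlapped, and the log2 difference was 0.32 ± 0.14 (0.035 to 0.60), with limma adjusted p = 0.460, and 0.25 ± 0.18 with TRaGS replicates 1 and 2 alone. For the other 6 genes the intervals included 0. Cish stood at 452 ± 108 against 458 ± 83.8 (log2 0.029, interval -0.35 to 0.41) and Il2rg at 984 ± 102 against 979 ± 168 (-0.018, interval -0.32 to 0.28). Stat5b stood at 280 ± 46.5 against 309 ± 41.6 (0.15, interval -0.26 to 0.55) and Stat5a at 116 ± 52.0 against 97.6 ± 19.6 (-0.17, interval -0.81 to 0.47). Il21r stood at 485 ± 101 against 507 ± 82.4 and Jak3 at 42.5 ± 20.4 against 50.3 ± 13.0. The summed B cell markers ranged from 44.9 to 180 in TRaWT Treg and from 75.9 to 247 in TRaGS Treg, and the 5 NK cell markers, cells that also use Il2rb, from 57.7 to 101 and from 28.7 to 129, with Klra8 at 0 in TRaWT Treg and Ncr1, Klra8 and Klra4 at 0 in TRaGS Treg. The 4 plasma cell markers summed to between 0 and 14.4 in TRaWT Treg and between 2.65 and 74.3 in TRaGS Treg. The 7 Treg markers summed to 7339 to 8744 in TRaWT Treg and 8905 to 10626 in TRaGS Treg. Of these, Ikzf2 stood at 3440 ± 413 against 5026 ± 608, Nrp1 at 770 ± 88.0 against 1353 ± 159 and Tnfrsf18 at 475 ± 47.7 against 703 ± 55.4, while Foxp3 stood at 1068 ± 56.5 against 1064 ± 183, Ikzf4 at 657 ± 111 against 596 ± 36.1 and Ctla4 at 223 ± 66.7 against 245 ± 121; the remaining one is Il2ra. The sum of the naive markers was lower in every TRaGS Treg library than in every TRaWT one, though Lef1 and Tcf7 each overlapped between the genotypes. The part of these markers in the genotype values was not tested.

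In CD4 cells no gene of the family was called, against 0.0575% of 10426 genes. In 0 of 10 genes were the genotypes without overlap, against 3.16% of all genes, and 1 of 10 had an unadjusted p under 0.05, against 5.17%. That gene was Il7r, at 1842, 2017, 2643 and 2614 in TRaWT and 2652, 4843, 2377 and 3020 in TRaGS. The highest value was replicate 2 of TRaGS, the library that stands apart. The log2 difference was 0.46 ± 0.19 (0.094 to 0.83), with limma adjusted p = 0.943, 0.25 without that library, and 0.67 with TRaGS replicates 1 and 2 alone. Other marker sums moved with genotype in these cells. The summed naive markers were higher in every TRaGS CD4 library than in every TRaWT one, though Ccr7, Lef1 and Tcf7 each overlapped. The 7 Treg markers summed to 978 to 1241 in TRaWT and 1271 to 1675 in TRaGS. With the 16 libraries scaled together, only Ikzf2 of these did not overlap (444 ± 22.3 against 689 ± 112). Foxp3 stood at 85.3 ± 40.3 against 122 ± 61.5 and Nrp1 at 167 ± 72.8 against 265 ± 52.2. Means of Ikzf4, Ctla4 and Tnfrsf18 were also higher in TRaGS, and that of Il2ra was lower (110 ± 27.4 against 100 ± 35.7). The 5 NK cell markers summed to 65.6 to 92.0 and 133 to 248, of which Eomes gave 56.5 ± 27.3 and 149 ± 21.1, with Ncr1 and Klra8 at 0 in both genotypes. The part of these markers in the CD4 values was not tested. In this subset limma took each gene's variance from the trend over all genes at its level, so these errors reflect genes of like level and not the gene's own animals.

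Cish stood at 37.1, 24.2, 89.3 and 61.0 in TRaWT CD4 cells and at 82.1, 77.1, 85.1 and 125 in TRaGS. Only TRaWT replicate 3 reached the TRaGS range, and the log2 difference of 0.93 ± 0.70 had an interval from -0.44 to 2.30. Il2rb stood at 185, 133, 186 and 302 in TRaWT and at 159, 46.0, 254 and 310 in TRaGS. Its log2 difference of -0.31 ± 0.45 turned to 0.27 without TRaGS replicate 2 and was -1.16 with TRaGS replicates 1 and 2 alone. Stat5b stood at 225 ± 47.5 against 327 ± 137 (0.47, interval -0.27 to 1.21), with 0.23 without TRaGS replicate 2. Il21r stood at 487 ± 83.0 against 419 ± 228 (-0.34, interval -0.96 to 0.27), with -0.67 without that library. Jak3 stood at 5.65, 109, 67.5 and 67.1 against 4.89, 38.2, 39.0 and 12.6 (-1.19, interval -3.21 to 0.82). The limma adjusted p of all 10 genes ran from 0.943 to 0.988.

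**Figure D3:**
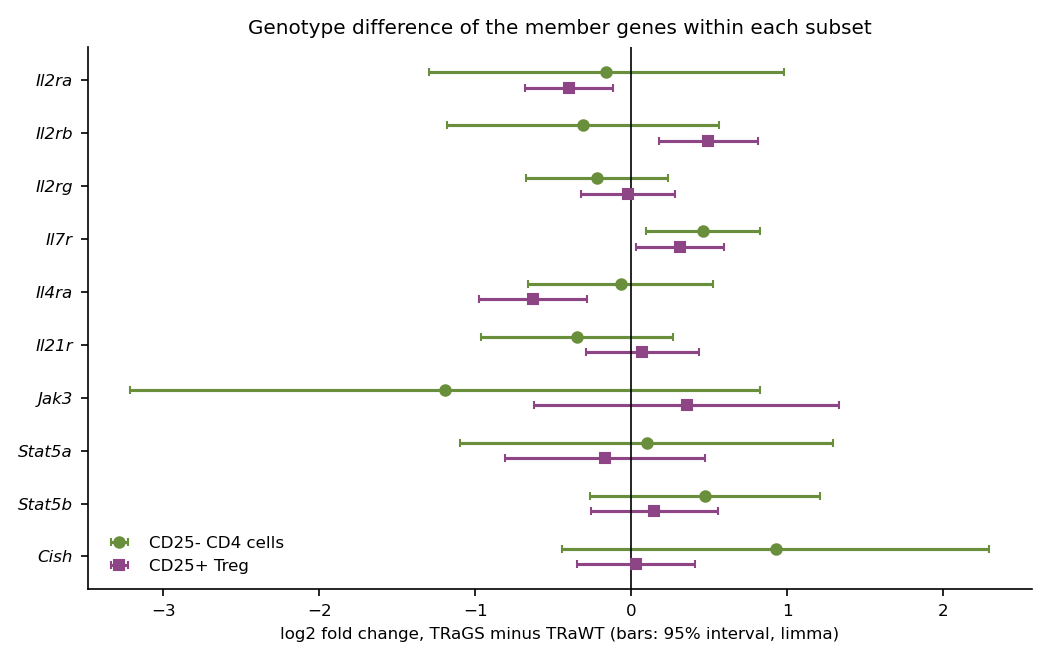
Log2 fold change, TRaGS minus TRaWT, of the 10 genes in CD25- CD4 cells (circles) and Treg (squares); bars are 95% intervals from limma, 4 animals a group. In Treg the bars of Il4ra and Il2ra lie below 0 and those of Il2rb and Il7r above it, and in CD4 cells only that of Il7r leaves 0, with no gene past the adjusted threshold.

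A further fit asked whether the genotype difference itself depended on the subset, from the Treg minus CD4 value of every animal. None of the 10 genes was called with limma, against 0.121% of 11563 genes, and 1 had an unadjusted p under 0.05 (6.52% of all genes). Il2rb had 0.81 ± 0.40 (0.0085 to 1.60, limma adjusted p = 0.757). This value rested on TRaGS replicate 2: it was 0.23 ± 0.34 without that animal and 1.61 ± 0.50 with TRaGS replicates 1 and 2 alone. Cish had -0.90 ± 0.51 (-1.90 to 0.11) and Il4ra -0.56 ± 0.33 (-1.21 to 0.086). A genotype effect particular to Treg was thus not shown for any of them.

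Stat5a and Stat5b lie side by side on chromosome 11, 100859351 to 100885169 and 100780731 to 100850724, and stand 2090345 and 2011725 bp from Thra, the altered gene. Sequence differences carried along with the Thra allele in this region cannot be told apart from the genotype. Il4ra and Il21r are also neighbours, on chromosome 7, 125552120 to 125579474 and 125603429 to 125633570. In Treg the first had a log2 genotype difference of -0.63 and the second 0.070 (interval -0.29 to 0.43). The other genes lie apart: Il2ra on chromosome 2 (11642807 to 11693193), Il2rb and Il7r on 15 (78479256 to 78495271 and 9505788 to 9530176), Il2rg on X (101264378 to 101268255), Jak3 on 8 (71676296 to 71690575) and Cish on 9 (107296026 to 107302784), all on GRCm38.

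The ligands of the family were hardly detected in these cells. Of 8 ligand genes only Il21 passed the filter. Il2 gave 27 reads in the 4 TRaWT CD4 libraries, 1 in TRaGS CD4, 1 in TRaWT Treg and 10 in TRaGS Treg. Il21, the ligand of Il21r, gave 1 read in TRaWT Treg and 51 in TRaGS Treg, at 0 to 0.822 and 4.15 to 20.1 normalised counts per library. These ranges did not overlap, beside 5.07% of all genes without overlap between genotypes in Treg. Il21 passed the filter there through the TRaGS libraries alone, so this is not counted. Nor did limma call it (adjusted p = 0.317). In CD4 cells Il21 ranged from 0 to 26.6 in TRaWT and from 0 to 65.0 in TRaGS.

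Among 7 other receptor chains and kinases none of the 6 tested was called between genotypes in Treg. Il9r, the IL-9 receptor chain, stood at 11.8 ± 12.2 in TRaWT Treg and 39.4 ± 14.8 in TRaGS Treg (log2 2.38, limma adjusted p = 0.258). In TRaGS CD4 cells it stood at 1.40 ± 2.07 on the joint scale against 36.2 ± 13.7 in Treg; it passed the filter through the Treg libraries alone, so its call between subsets is not counted. Of the 5 genes past the filter in both subsets, 0 were called between subsets in TRaWT and 1 in TRaGS, beside 3.24% and 8.17% of all genes. In TRaGS Jak1, the kinase partner of Jak3, was lower in Treg (3943 ± 517 against 2542 ± 151, log2 -0.63, limma adjusted p = 8.46e-05). The genotype effect differed between the subsets for 0 of the 6 tested. The other Stat genes gave 0 calls of 5 in each of the genotype and subset comparisons. Of 14 feedback inhibitors and phosphatases, only Socs2, another Stat5-induced inhibitor, was called between the subsets. It was higher in Treg in both genotypes, beside 1.80% of all genes called higher in TRaWT and 4.46% in TRaGS. In TRaWT it rose from 31.4 ± 19.8 to 175 ± 15.6 (2.67, limma adjusted p = 0.00129). In TRaGS the difference was 2.47 (limma adjusted p = 0.00204), but the CD4 libraries varied widely, at 50.5 ± 71.9 on the deposited scale. Between genotypes 0 of the 14 were called. Ptpn2, a phosphatase that acts on Jak kinases and Stat5, stood at 342 ± 96.4 in TRaWT Treg and 214 ± 56.7 in TRaGS Treg (-0.68, limma adjusted p = 0.236).

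Genes known to be raised by IL-2 or IL-7 through Stat5 were read next. Of the 23, 22 passed the filter in both subsets. In TRaWT, 9 of 22 were called higher in Treg than in CD4 and 0 lower, with a median log2 difference of 0.85 against 0.093 for all genes. In TRaGS, 11 were called higher and 1 lower, with a median of 1.39 against 0.19. Beside these counts 1.80% of all genes were called higher and 1.44% lower in TRaWT, and 4.46% and 3.72% in TRaGS. The list holds Foxp3, Ctla4, Tnfrsf4, Tnfrsf9 and Tnfrsf18, which are Treg genes in their own right. Ctla4, an inhibitory receptor, rose from 17.3 ± 5.60 to 223 ± 66.7 in TRaWT (3.61), and Tnfrsf4, a costimulatory receptor, from 92.6 ± 69.9 to 780 ± 159 in TRaGS (3.38). Tnfrsf9, another costimulatory receptor, rose from 42.4 ± 25.2 to 334 ± 38.3 in TRaWT (3.15). Gzmb, the cytotoxic protease granzyme B, stood at 1.55 ± 1.52 in CD4 and 26.7 ± 6.87 in Treg in TRaGS and passed the filter through Treg alone, so it is not counted. The gene called lower was Bcl2, which encodes a survival protein, from 2608 ± 216 to 966 ± 208 in TRaGS (-1.45).

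Between genotypes in Treg, 4 of the 23 were called, 2 in each direction, beside 0.733% of all genes called higher and 0.226% lower, and the median was 0.15 against 0.0057 for all genes. The list was chosen with earlier results of these data known, so counts beside such shares do not measure an excess. Prdm1, encoding the repressor Blimp-1, rose from 57.7 ± 22.2 to 172 ± 40.3 in TRaGS (log2 1.62, limma adjusted p = 0.00571). Icos, a costimulatory receptor, rose from 794 ± 208 to 1410 ± 289 (0.84, adjusted p = 0.00279). Bcl2 fell from 1837 ± 171 to 1050 ± 225 (-0.83, adjusted p = 0.000999) and Lta, which encodes lymphotoxin alpha, from 175 ± 36.3 to 76.0 ± 16.4 (-1.19, adjusted p = 0.0262). In CD4 cells 1 of 22 was called, beside 0.0575% of all genes: Bcl2, which rose from 1212 ± 223 to 2481 ± 224 (1.05, limma adjusted p = 0.00237). The opposed changes of Bcl2 differed between the subsets (-1.87 ± 0.21, limma adjusted p = 7.95e-10).

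Of 6 genes that IL-2 lowers, 3 were called lower in Treg than CD4 in TRaWT and 4 in TRaGS, beside 1.44% and 3.72% of all genes, and the medians were -0.58 and -1.24 against 0.093 and 0.19 for all genes. Tcf7 and Ccr7 are also among the naive markers summed above, and Klf2 is also on the list of Il7r regulators below. These calls are thus not separate from the naive marker difference between the subsets. Tcf7, a transcription factor of naive and memory T cells, fell from 1657 ± 365 to 604 ± 73.0 in TRaWT (-1.44) and from 2538 ± 968 to 563 ± 83.2 in TRaGS (-2.11). Ccr7, a lymph node homing receptor, fell from 913 ± 186 to 327 ± 33.6 in TRaWT (-1.46). Between genotypes 1 of the 6 was called, in Treg, beside 0.959% of all genes (0.226% lower). There Il6st, the gp130 chain of the IL-6 receptor, fell from 636 ± 69.7 to 380 ± 64.0 in TRaGS (-0.75, limma adjusted p = 0.0166).

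Among 8 regulators of Il7r transcription, Foxp1, a forkhead factor that represses Il7r, fell in TRaGS Treg from 2512 ± 83.0 to 1484 ± 324 (-0.79, limma adjusted p = 0.000999), and the genotype effect on it differed between the subsets (-0.86 ± 0.19, adjusted p = 0.0179). Il7r itself was not called there. Between subsets 1 of the 8, Klf2, was called lower in Treg in TRaWT and 4 were in TRaGS, beside 1.44% and 3.72% of all genes. The 4 held both activators and a repressor. In TRaGS these were Foxo1, which activates Il7r (1243 ± 428 in CD4 against 687 ± 70.9 in Treg, -0.81), Foxp1 (2737 ± 451 against 1365 ± 298, -1.02), Ets1 (-0.54) and Klf2 (-1.53). Of 12 genes of the Akt and mTOR branch tested and 8 for receptor trafficking, 0 were called between genotypes in either subset. Between subsets Pik3cd, a catalytic subunit of phosphoinositide 3-kinase, was called lower in Treg in TRaGS (1707 ± 372 against 624 ± 40.6, -1.43).

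**Figure D4:**
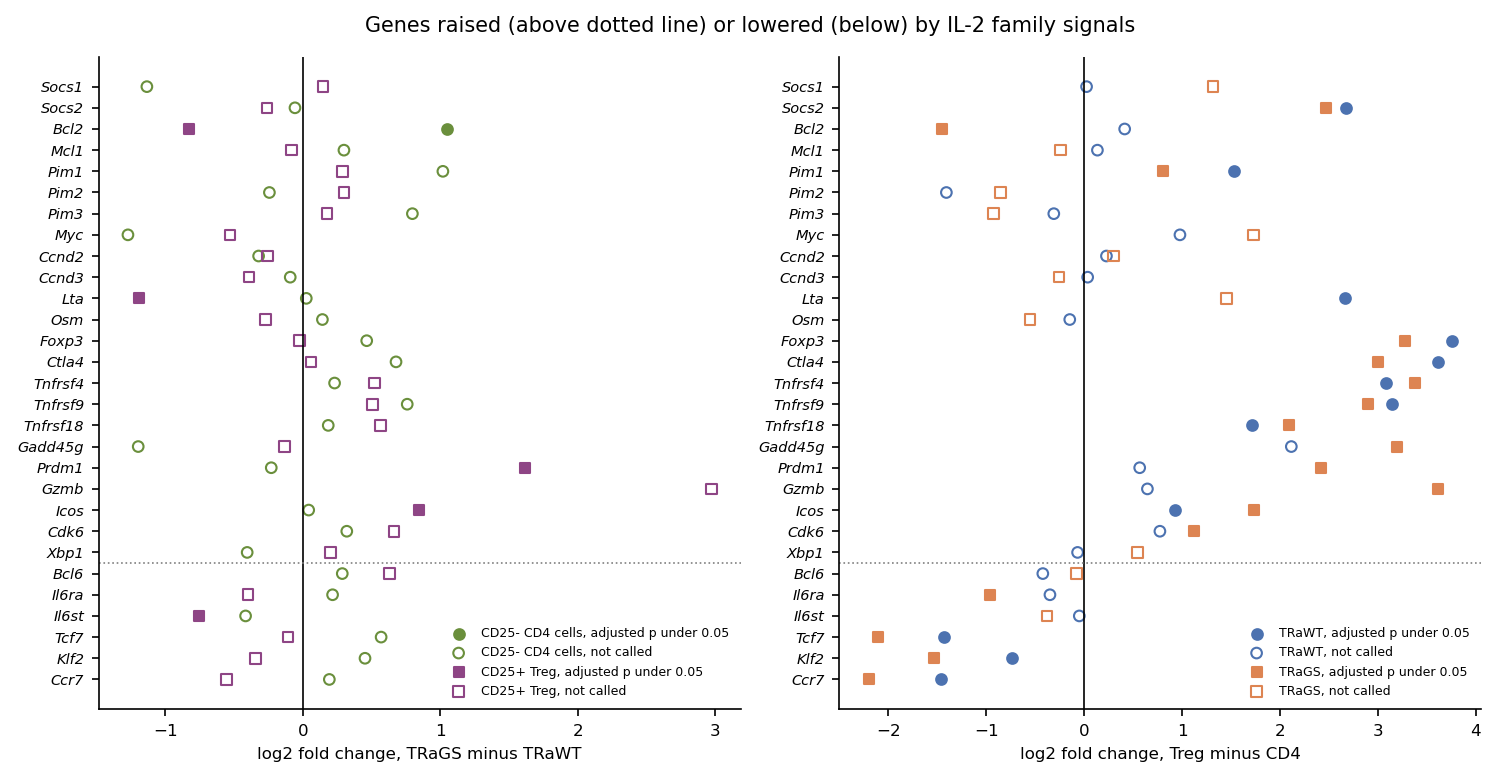
Log2 fold change of genes raised by IL-2 or IL-7 through Stat5 (above the dotted line) and lowered by IL-2 (below it), between genotypes on the left and between subsets on the right; filled marks have a limma adjusted p under 0.05. Filled marks between genotypes are few and point both ways, and between subsets those above the line are to the right of 0 except Bcl2 in TRaGS, and those below it to the left.

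For Il2ra, Il2rb, Il7r and Cish the genes with the most similar pattern over the 16 libraries were found by the root mean square difference of centred log2 values, as a description over 7761 genes. Nearest to Il2ra were Mctp1 (0.46), Foxp3 (0.49) and Lad1 (0.56), and nearest to Cish were Tnfrsf9 (0.50), Ikzf2 (0.53) and Ikzf4 (0.61). Mctp1 and Lad1 passed the filter on the mean through the Treg libraries alone. Their CD4 means in TRaWT and TRaGS were near the floor, at 4.58 and 2.33 for Mctp1 and 4.68 and 5.21 for Lad1. Nearest to Il2rb were Adamts10 (0.39), Adam19 (0.42) and Ergic1 (0.44), and nearest to Il7r were Epb41 (0.22), Klhl6 (0.24) and Clip1 (0.24). The points share libraries, depth and the sort.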

How the data were processed

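Spleen cells of 4 TRaWT and 4 TRaGS mice were enriched for CD4 magnetically and sorted on CD25, and 3' mRNA libraries that read in the forward orientation were made, per the labels' protocols. The submitters' processing notes name the build GRCm38, while the sources used here name no aligner or counter. The authors deposited normalised counts (a signal unit), in which a library's reads share 1 divisor and each subset's table has its own scaling. Values were whole multiples of 1 step in all 16 libraries (tolerance 0.001), so reads were recovered, and the divisors matched median-of-ratios factors of those reads. No molecular identifiers are mentioned for the kit, so PCR copies may be among the reads. Depth limits Jak3 most. Symbols matched 47224 of 47643 identifiers, and coordinates are from GENCODE mouse release M21.

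Genotypes were compared within each table with limma 3.58.1 (R 4.3.3) on log2(value + 1), with a variance trend, a mean of at least 5 and Benjamini-Hochberg adjustment over all genes at 0.05. Fold changes are on that scale, where low genes show too small a change. The prior degrees of freedom were infinite in CD4 and 36.8 in Treg. Subsets were compared on recovered reads scaled together, and the difference of the genotype effect on deposited values, both through each animal's Treg minus CD4 difference. The same animal number in the titles pairs these libraries, and their deviations correlated at -0.0018 to 0.069. For these fits the variance trend was set on mean expression after limma's default, a trend on the mean difference, had been seen to make few calls. That default is an added alternative, and prior degrees of freedom were 83.0 and 92.9, so a gene's own spread weighs little in these p-values. Exact permutation tests were two-sided.

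The members and gene lists were chosen with earlier results of these data known. Shares of all genes set beside their counts therefore do not measure an excess. Named genes were all members, from each list the called genes (up to 6 by smallest p, or the 2 with the smallest p) between genotypes and up to 3 per direction between subsets, and the 3 nearest genes in pattern among genes with a mean of at least 20; uncalled genes of the lists that are not described are covered by the counts. A gene left out of 2 lists is not reported here. Bcl2 and Foxp1 are also given where the genotype effect differed. Alternatives were other pseudocounts, filters and scalings, the recovered reads in edgeR 4.0.16 and in DESeq2 1.42.0, no variance trend, the replicate block, leaving out each library, and TRaGS replicates 1 and 2 alone. The fits were tested on simulated data. Figures were drawn with matplotlib 3.10.9.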

Additional observations from a re-analysis of the deposited data

Results flagged for a closer look

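Within a group of 4, 2 values of these genes stood far from the rest, with a gap to the nearest value above Dixon's 95% critical value. Stat5b in TRaGS Treg was at 370.87 normalised counts in replicate 2 (gap 0.918 of the range), while the other 3 stood closer together. Cish in TRaGS CD4 cells was at 124.88 in replicate 4 (gap 0.832 of the range). In all, 40 groups were examined, and chance flags about 1 in 20.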

How the results depend on the processing

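Over 930 results of single genes of the family under an alternative, 880 kept their direction and side of the threshold, 32 changed sign, 15 lost and 3 gained a call.

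Genes called between genotypes in CD4 (6) were 1 without the filter, 2 with upper-quartile scaling, 3 with edgeR, 10 with DESeq2, 0 without a variance trend, 27 with TRaGS replicates 1 and 2 alone, and 3 to 9 without 1 library (3 without TRaWT replicate 2, 3 or 4). In Treg (106) they were 62 without the filter, 0 without a trend, 42 with replicates 1 and 2 alone and 56 to 108 without 1 library (56 and 61 without TRaGS replicate 3 and 4). For the difference of the genotype effect (14) they were 1 without the filter, 6 with upper-quartile scaling, 41 with DESeq2, 0 without a trend, 0 with the trend on the mean difference, 3 with no replicate block, 36 with replicates 1 and 2 alone and 9 to 28 without 1 animal (9 without TRaWT replicate 1 or 4, 28 without TRaGS replicate 4). Treg against CD4 in TRaWT (351) gave 140 without the filter, 672 with DESeq2, 75 without a trend, 10 with the trend on the mean difference and 172 to 596 without 1 animal (172 to 233 without a TRaWT animal, 596 without TRaGS replicate 2). In TRaGS (886) it gave 385, 1463, 253, 138 and 538 to 873, in the same order (538 and 585 without TRaGS replicate 1 and 2), and with no replicate block the counts were 236 and 747. The cause of these shifts was not tested.

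Of the family, Treg genotype calls were 1 with DESeq2 (Il4ra). The 3 called between subsets in TRaWT, Il2ra left aside, were 1 without the filter, 1 without a trend, 0 with the trend on the mean difference (limma) and 2 to 4 without 1 animal (2 without TRaWT replicate 3, 4 without TRaGS replicate 2). In TRaGS the 3 were 1 without a trend, 0 with the trend on the mean difference (limma) and 3 without any 1 animal. Il2rb in TRaWT had adjusted p = 0.107 without the filter, 0.269 without a trend and 0.357 with the trend on the mean difference, and in TRaGS 0.0567 without a trend and 0.0921 with that on the mean difference. Il7r in TRaWT had 0.107, 0.436 and 0.365 under those 3 settings, and in TRaGS 0.206 without a trend and 0.161 with that on the mean difference. Cish had 0.0698 and 0.0658 with the trend on the mean difference (limma in each case).

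Changed signs in the CD4 genotype comparison were Il4ra at 0.11 with replicates 1 and 2 alone and Stat5a at -0.030 with upper-quartile scaling, and without 1 library Il2rb ran from -0.64 to 0.27, Il4ra from -0.23 to 0.078 and Stat5a from -0.14 to 0.30. In Treg Il2rg was 0.071 with upper-quartile scaling, and without 1 library Il2rg ran from -0.12 to 0.080, Il21r from -0.024 to 0.19, Jak3 from -0.035 to 0.61, Stat5a from -0.31 to 0.10 and Cish from -0.10 to 0.17. For the difference of the genotype effect Il2ra was 0.27 with replicates 1 and 2 alone and Il7r 0.074 with upper-quartile scaling, and without 1 animal Il2ra ran from -0.49 to 0.0059, Il7r from -0.29 to 0.060 and Stat5a from -0.61 to 0.10, while Il2rb, which kept its sign, ran from 0.23 to 1.18. Between subsets in TRaWT without 1 animal Il4ra ran from -0.015 to 0.21, Jak3 from -1.26 to 0.29, Stat5a from -0.18 to 0.51 and Stat5b from -0.039 to 0.27. In TRaGS upper-quartile scaling gave Il2rg 0.075, Stat5a 0.29 and Stat5b 0.18, Stat5a was 0.0024 with replicates 1 and 2 alone, and without 1 animal it ran from -0.19 to 0.083.

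Replicate numbers do not pair animals between genotypes (correlations of -0.0021 to 0.034). With the replicate block the genotype calls were 4 in CD4 and 112 in Treg, and 0 of the family in each. Depth limits Jak3, with 5 to 131 reads a library.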

Other observations

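The ratio of Il2rb to Il2ra normalised counts was computed after both values had been seen and is a description without a test. In TRaWT Treg it ranged from 0.365 to 0.505 and in TRaGS Treg from 0.622 to 0.960, without overlap. Mean Il2rb was already higher and mean Il2ra lower in TRaGS Treg, so this separation is not a further result. In CD4 cells the ratio ranged from 1.61 to 2.28 in TRaWT and from 0.699 to 3.15 in TRaGS, where the lowest value is replicate 2. The ratio of Stat5b to Stat5a in Treg ranged from 1.19 to 3.92 in TRaWT and from 2.92 to 3.51 in TRaGS.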
